A study of Homo sapiens with 9 samples.

Results

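The zinc finger genes of human chromosome 19 were described here by the H3K4me3 at their promoters. The members were the 246 protein-coding genes of that chromosome whose symbol is ZNF followed by digits and an optional letter, out of 20163 protein-coding genes annotated on hg19, and 1234 other protein-coding genes lie on the same chromosome. H3K4me3 had been mapped by CUT&RUN, a method in which nuclease tethered by an antibody cuts out marked chromatin for sequencing. The cells were HEL, a human erythroleukemia line. Of the 9 libraries, 3 were controls carrying a guide without a target (NTC), and METTL3, METTL14 and WTAP knockouts (METTL3-KO, METTL14-KO, WTAP-KO) had 2 apiece. All groups carried lentiviral CRISPR-Cas9 constructs, the sources used here describe transduced cell populations and no clones, and the comparison asked whether promoter H3K4me3 depends on the m6A methyltransferase. The labels do not say that libraries of a group came from separate cultures, so the p-values below measure only the spread between these libraries, which may be technical.

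Most zinc finger genes of chromosome 19 encode KRAB zinc finger proteins, in which an array of C2H2 fingers reads DNA and a KRAB domain brings in the corepressor TRIM28 and, through it, silencing enzymes. They arose by tandem duplication and still sit in clusters of related genes, and many of them bind transposable elements. H3K4me3 is a triple methylation of a lysine in the tail of histone H3, and it is laid down by SETD1 and MLL enzymes around the starts of active or poised genes. METTL3 is the catalytic subunit of the enzyme that writes m6A on mRNA, METTL14 its partner in RNA binding, and WTAP the subunit that holds the complex in nuclear speckles.

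Each library came as its own peak list, and the lists held between 3160 and 21941 peaks. Every peak has a signal, in coverage units that the authors scaled to a yeast spike-in, and a gene's promoter signal is the largest signal among peaks within 1 kb of any annotated start, or 0 where no peak was called. Peak widths ran from 150 bp to 2000 bp and no further in any list. The lists give no fragment totals, so the depth of each library is unknown. Nearly all values of a library were whole multiples of 1 step, which was 1.142 to 1.316 in NTC, 0.461 and 1.068 in METTL3-KO, 0.416 and 0.440 in METTL14-KO and 0.320 and 0.407 in WTAP-KO libraries. The lowest value of a list was near 30 in each of them, so it stood for 24 to 28 steps in NTC and for 30 to 94 steps in KO libraries.

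The promoters of 6 members stand for the patterns described below, and their RefSeq windows (250 bases before to 50 after the start) are printed 5′ to 3′, from the GRCh38.p14 table, with hg19 positions found by an exact match to that build. Capitals mark the letters searched on both strands: CCGGAAG (bound by ETS factors), GGGCGG (SP and KLF factors), CCAAT (NFY), TGCGCA (NRF1), AGATAA (erythroid factors of the GATA family), and TATAAA (the TATA box). The letters CTACANTTC, part of the site of ZNF143, were added after these windows had been read. ZNF846, on the minus strand at chr19:9879365-9879664, had the strongest NTC promoter signal of all members and a peak in all 9 libraries.
ZNF846: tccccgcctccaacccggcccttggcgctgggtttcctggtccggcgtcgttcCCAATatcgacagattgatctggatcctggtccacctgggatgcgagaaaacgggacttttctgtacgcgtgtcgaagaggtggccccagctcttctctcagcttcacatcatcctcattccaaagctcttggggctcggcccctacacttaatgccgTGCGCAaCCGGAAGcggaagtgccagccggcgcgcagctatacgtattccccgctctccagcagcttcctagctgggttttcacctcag
ZNF844, on the plus strand at chr19:12175296-12175595, had a peak in every NTC library and in no KO library.
ZNF844: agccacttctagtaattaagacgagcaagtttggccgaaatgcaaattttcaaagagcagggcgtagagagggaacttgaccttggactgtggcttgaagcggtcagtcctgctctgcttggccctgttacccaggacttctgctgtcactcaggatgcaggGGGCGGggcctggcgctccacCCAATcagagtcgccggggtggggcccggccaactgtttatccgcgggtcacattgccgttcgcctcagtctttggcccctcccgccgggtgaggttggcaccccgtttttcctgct
ZNF91 at chr19:23578224-23578523 and ZNF675 at chr19:23869965-23870264, both on the minus strand, are neighbours in the cluster that kept the smallest share of its peaks among the 8 with at least 10 members marked in NTC. Both hold CCAAT followed by CTTCCGG, which is CCGGAAG read on the opposite strand, near the start.
ZNF91: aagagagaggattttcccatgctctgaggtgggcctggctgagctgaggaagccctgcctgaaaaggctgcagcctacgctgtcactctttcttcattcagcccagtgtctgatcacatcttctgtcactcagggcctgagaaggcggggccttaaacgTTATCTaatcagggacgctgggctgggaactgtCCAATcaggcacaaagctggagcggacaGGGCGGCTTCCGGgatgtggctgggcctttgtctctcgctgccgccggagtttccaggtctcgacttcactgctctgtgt
ZNF675: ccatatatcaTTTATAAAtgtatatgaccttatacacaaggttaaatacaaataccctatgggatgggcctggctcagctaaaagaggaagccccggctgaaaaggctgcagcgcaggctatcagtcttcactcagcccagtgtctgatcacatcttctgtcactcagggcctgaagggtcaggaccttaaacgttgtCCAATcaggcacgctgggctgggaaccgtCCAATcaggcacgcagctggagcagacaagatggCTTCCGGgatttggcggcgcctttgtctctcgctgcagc
ZNF225, on the plus strand at chr19:44617302-44617601, and ZNF790, on the minus strand at chr19:37329240-37329539, had a peak over the window in each of the 6 KO libraries, while no NTC library had one.
ZNF225: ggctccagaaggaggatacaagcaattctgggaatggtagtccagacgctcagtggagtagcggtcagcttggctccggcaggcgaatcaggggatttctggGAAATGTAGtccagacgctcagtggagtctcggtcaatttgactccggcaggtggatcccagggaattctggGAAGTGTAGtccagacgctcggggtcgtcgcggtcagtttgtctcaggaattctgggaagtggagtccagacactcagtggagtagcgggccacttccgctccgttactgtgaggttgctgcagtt
ZNF790: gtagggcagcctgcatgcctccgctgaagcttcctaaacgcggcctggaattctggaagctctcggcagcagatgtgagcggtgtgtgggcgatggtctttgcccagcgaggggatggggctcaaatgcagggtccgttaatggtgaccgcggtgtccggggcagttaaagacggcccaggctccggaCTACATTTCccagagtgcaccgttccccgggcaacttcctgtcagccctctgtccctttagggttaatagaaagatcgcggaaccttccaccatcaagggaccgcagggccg

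Chromosome 19 ZNF genes were marked more often than other genes in NTC cells, and they kept their peaks more often in each KO. A promoter peak was called at 180, 182 and 181 members in the NTC libraries, at 166 and 161 in METTL3-KO, at 135 and 84 in METTL14-KO and at 70 and 76 in WTAP-KO. The groups did not overlap in this number, and the METTL14-KO libraries stood further apart than those of any other group. The group means were 181.0 ± 1.00 (SD, n = 3), 163.5 ± 3.54, 109.5 ± 36.1 and 73.00 ± 4.24 (SD, n = 2 each). In percent of the NTC mean, the number of members with a peak was 90.3% in METTL3-KO, 60.5% in METTL14-KO and 40.3% in WTAP-KO. These percentages compare numbers and are not shares of NTC peaks kept, since members without an NTC peak count too. Of the 166 and 161 members with a peak in METTL3-KO, 130 and 126 were marked in all 3 NTC libraries. Over all protein-coding genes the numbers were 71.8%, 36.2% and 25.6% of the NTC mean. Over the other genes of chromosome 19 they were 63.5%, 37.0% and 20.8%, and over the 262 ZNF genes of other chromosomes 66.4%, 30.3% and 19.5%. ZNF genes elsewhere in the genome thus lay below all protein-coding genes and below the chromosome 19 ZNF genes in each KO. They were not compared at equal NTC signal. In these pools of cells, fewer cells with the mark and less of it per cell cannot be told apart.

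**Figure D1:**
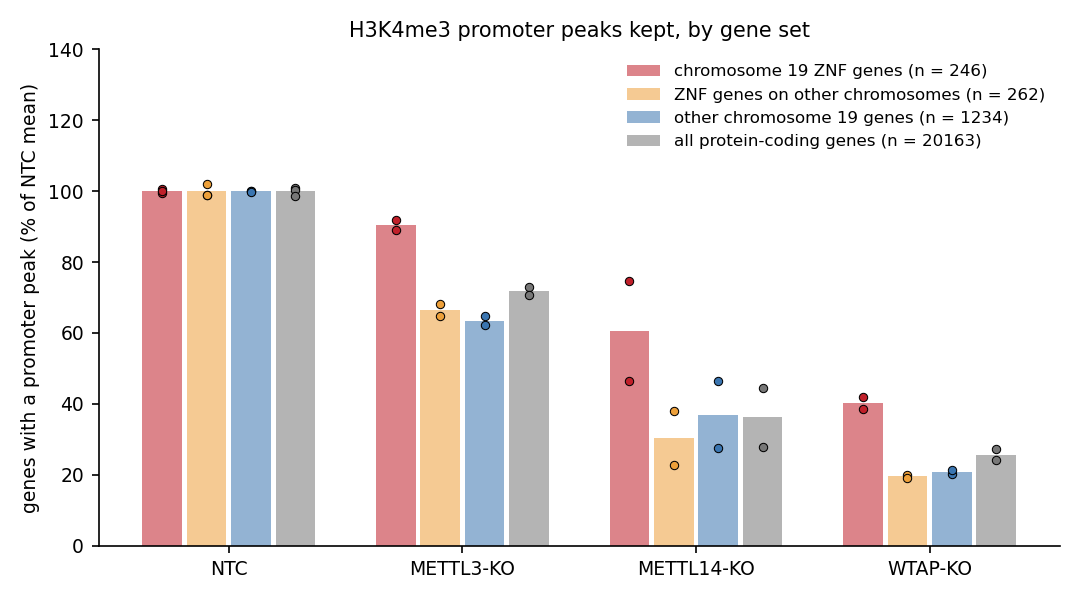
Genes with a promoter peak in each library, in percent of the NTC mean of the gene set (y axis), for the 4 groups (x axis). Bars are group means and points are libraries, and the chromosome 19 ZNF genes lie at 90.3%, 60.5% and 40.3% in the METTL3, METTL14 and WTAP knockouts, above the other 3 sets plotted in each KO group mean.

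Of the 246 members, 170 (69.1%) were marked in all 3 NTC libraries, against 42.1% of all protein-coding genes. Their median NTC signal was 7733, above the 5148 of all 8495 genes so marked and the 5533 of the 631 other genes on chromosome 19. A peak was missing from both libraries of the group at 31 of the 170 in METTL3-KO (18.2%), at 66 in METTL14-KO (38.8%) and at 111 in WTAP-KO (65.3%). The shares over all genes were 46.3%, 73.3% and 84.9%. In all, 39 members (22.9%) had a peak in all 6 KO libraries, against 7.83% of all genes, and 31 (18.2%) had none in any, against 45.8%. Every one of the 31 members without a METTL3-KO peak therefore also lacked a METTL14-KO and a WTAP-KO peak. Since METTL14-KO replicate 1 held 135 marked members and replicate 2 held 84, the METTL14-KO loss rose to 64.7% when replicate 1 was left out.

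Because the members had a higher NTC signal, genes of equal NTC signal were compared, in deciles of the mean NTC signal over the 8495 genes, and the other genes were weighted by the number of members in each decile. In METTL3-KO, 76.5% and 74.1% of the 170 members had a peak in replicates 1 and 2, against 63.0% and 60.3% of other genes of equal signal. In METTL14-KO the shares were 60.0% and 35.3% against 37.0% and 21.8%. In WTAP-KO they were 28.8% and 31.8% against 18.9% and 20.8%. Members were ahead in all 6 KO libraries, by 9.97 to 23.0 percentage points. Against the other genes of chromosome 19 alone they were ahead by 5.87 to 13.7 points. Where peaks below 2095, the median signal of NTC peaks, were left out, the lead was 11.0 points in METTL3-KO, 4.75 in METTL14-KO and 0.411 in WTAP-KO, so that in WTAP-KO it lay in peaks weaker than that value.

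The lead came mostly from the genes of middle and high NTC signal. In the top decile, with mean NTC signals of 13195 to 62513, a peak was kept in the METTL3, METTL14 and WTAP knockouts by 100%, 97.1% and 91.4% of the 35 members, against 97.5%, 79.3% and 66.9% of other genes. In decile 8, with signals of 7959 to 9996, 20 of 21 members (95.2%) kept a peak in METTL14-KO against 38.9% of other genes. At the low end none of the 17 members in deciles 1 and 2 kept a peak in any KO, while other genes there did so in 2.50% to 10.0%. With 7 and 10 members and shares this low, an order cannot be read there. In decile 3, with 9 members, the shares were 44.4%, 11.1% and 0% in the METTL3, METTL14 and WTAP knockouts, against 22.8%, 6.66% and 1.66%.

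**Figure D2:**
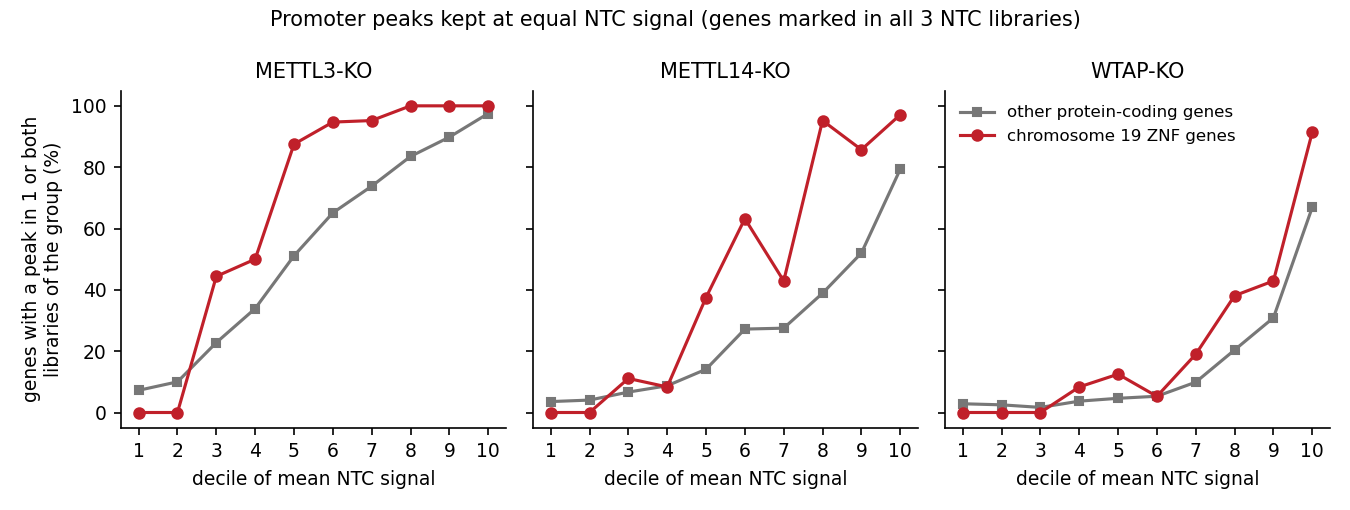
Share of genes with a peak in at least 1 library of the KO group (y axis, %) by decile of mean NTC signal (x axis), for genes marked in all 3 NTC libraries. The chromosome 19 ZNF genes (circles, 7 to 35 per decile) lie above other genes (squares) from decile 5 on, except in WTAP-KO decile 6 (5.26% against 5.30%), and at 0 in deciles 1 and 2.

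Keeping a peak did not mean keeping its height. At the 39 members with a peak in all 9 libraries the median signal left was 28.4% of NTC in METTL3-KO, 14.8% in METTL14-KO and 6.09% in WTAP-KO. At the 626 other genes with a peak in all 9 libraries the medians were 29.1%, 13.0% and 8.68%, with a median NTC signal of 14480 against 15121 at the members. Both sets were chosen by having peaks throughout, so these values describe the survivors only. Among the 170 members marked in all NTC libraries, ZNF175 alone rose above every NTC library in a KO library, and it did so in both METTL3-KO libraries. How many other genes did so was not counted, so whether this is rare is not known. Among the 626 other genes the highest value was 2461% of NTC in METTL3-KO.

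Promoter signal was tested with limma on log2(signal + 30.1), over the 12037 genes with a promoter peak in at least 2 libraries, among them 208 members. In METTL3-KO 124 members were lower (59.6%, against a background of 60.9% of all genes tested) and 19 higher (9.13%, background 14.0%). In METTL14-KO 166 were lower (79.8%, background 68.8%) and 12 higher (5.77%, background 8.38%). In WTAP-KO 169 were lower (81.2%, background 69.7%) and 14 higher (6.73%, background 6.81%). For the mean of the 3 KO groups 171 were lower (82.2%, background 73.0%) and 17 higher (8.17%, background 14.3%). Of the 770 other chromosome 19 genes tested, 69.1%, 79.5% and 81.4% were lower in the METTL3, METTL14 and WTAP knockouts, and 84.9% for the mean. In the same order 6.75%, 4.94%, 2.73% and 6.62% were higher. The larger share of lower calls than over all genes in METTL14-KO and WTAP-KO was thus not particular to the members. The median difference of the members on this scale was -2.47 in METTL3-KO, -5.23 in METTL14-KO and -6.20 in WTAP-KO, against -3.48, -5.57 and -5.97 over all genes tested. A gene without a peak enters as 0, so the size of a difference at such a gene depends on the pseudocount and is not a fold change. Centring each library on the genes marked in all 9 libraries moved the median of all genes to -1.95, -2.76 and -2.55 and left 73, 93 and 127 members lower (35.1%, 44.7% and 61.1%, against 50.3%, 56.8% and 57.9% of all genes tested) and 21, 20 and 25 higher (10.1%, 9.62% and 12.0%, against 16.0%, 16.4% and 16.5%). Dividing by the step left 65 lower (31.2%, against 48.7% of all genes tested) and 18 higher (8.65%, against 14.0%) in METTL3-KO. In METTL14-KO it left 105 lower (50.5%, against 60.7%) and 12 higher (5.77%, against 8.63%). In WTAP-KO it left 147 lower (70.7%, against 65.3%) and 14 higher (6.73%, against 7.27%). The larger share of lower calls in METTL14-KO thus held only as deposited, while that in WTAP-KO stayed.

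The member promoters with the strongest NTC signal kept a peak in every KO library at a fraction of its height. ZNF846 had 36556, 34867 and 43182 in NTC, 15128 and 11994 in METTL3-KO, 8465 and 4985 in METTL14-KO, and 4502 and 6460 in WTAP-KO. All 6 KO values lay below all NTC values, with 35.5%, 17.6% and 14.3% of the NTC mean left (log2 difference of all KO groups -2.28, SE 0.213, limma adjusted p = 6.4e-05). ZNF426, from the same cluster, had 38829, 32608 and 37425 in NTC, 14889 and 7989 in METTL3-KO, 6526 and 7044 in METTL14-KO, and 5768 and 7438 in WTAP-KO. Its METTL14-KO and WTAP-KO libraries overlapped, near 18.7% and 18.2% of NTC. ZNF562 and ZNF121, from the same cluster, kept 17.1% and 19.1% in WTAP-KO. ZNF224, a KRAB repressor that works with TRIM28, fell further: NTC libraries had 23071, 24708 and 25645, METTL3-KO 10963 and 8362, METTL14-KO 2525 and 1594, and WTAP-KO 1005 and 1061. It kept 39.5% of NTC in METTL3-KO and 4.22% in WTAP-KO. ZNF226, ZNF227, ZNF566 and ZNF615, the other members among the 8 of highest NTC signal, kept 23.8% to 34.5% in METTL3-KO and 3.45% to 10.7% in WTAP-KO. All 8 were lower in all KO groups together (limma, adjusted p between 5.5e-06 and 9.6e-05). They were picked for their high NTC signal, which favours a lower KO value, and 73.0% of all genes tested were lower, so these p-values are a description. On values centred on the genes marked in all 9 libraries the difference turned to 0.30 for ZNF846, 0.39 for ZNF426, 0.46 for ZNF562, 0.00 for ZNF227 and, outside the 8, 0.54 for ZNF121. Relative to other promoters that kept a peak, these 5 were thus not lower.

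**Figure D3:**
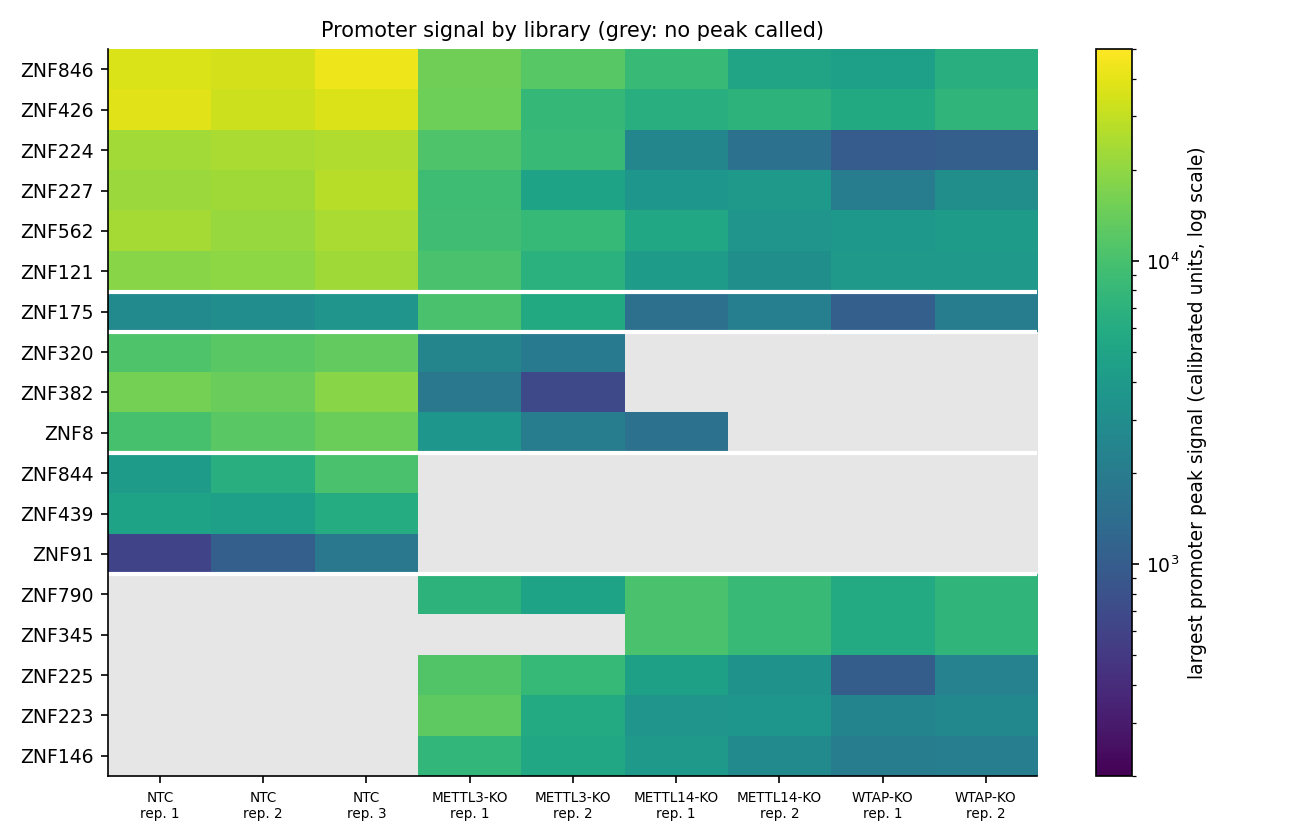
Largest promoter peak signal (colour, log scale, calibrated coverage units; grey where no peak was called) of 18 members (rows) in the 9 libraries (columns). From top to bottom the blocks are 6 strong promoters with a peak throughout, ZNF175, 3 that kept peaks mainly in METTL3-KO, 3 without a KO peak and 5 without an NTC peak; in the top block the KO values are lower than NTC as deposited, a direction that turned under centring for ZNF846, ZNF426, ZNF227, ZNF562 and ZNF121.

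Other members lost the peak altogether. Among the 31 without any KO peak, ZNF844 had the strongest NTC signal, with 4122, 6545 and 10186. Its NTC libraries were far apart. ZNF439 followed with 4888, 4525 and 6064 and ZNF773 with 4416, 6130 and 4855. ZNF579, ZNF441 and ZNF527 had mean NTC signals of 3869, 3702 and 3684. Each of the 6 was listed without a peak in all 6 KO libraries. At the levels of the strongest of them most members kept a peak in METTL3-KO: 18 of 19 did so in decile 6 (NTC signals of 5150 to 6455), where ZNF439 was the exception, and 20 of 21 in decile 7 (6457 to 7953), where ZNF844 was. In decile 4 (2974 to 3943), which holds ZNF579, ZNF441 and ZNF527, 6 of 12 members did.

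Members with a described role were spread over these classes. ZNF91, which represses SVA retrotransposons, had 609, 1067 and 1813 in NTC and no KO peak. ZNF93, which silences part of the LINE-1 family, had no peak in any of the 9 libraries. ZNF675, an inhibitor of TRAF6 signalling, had 1607, 2907 and 3221 in NTC and a single KO peak, of 233 in METTL3-KO replicate 2. The levels of ZNF91 and ZNF675 were thus among the lower NTC levels of the members. ZNF274, which brings SETDB1 to the 3′ ends of other zinc finger genes, had no peak in NTC replicate 1 and 9783 and 10975 in the others, 966 and 409 in METTL3-KO, and no peak in the other KO libraries. ZNF304, a KRAB protein described as a silencer of the INK4-ARF locus, had 9854, 11027 and 11486 in NTC, 3286 and 1551 in METTL3-KO, and 1139 in METTL14-KO replicate 1. ZNF568, whose mouse counterpart represses an Igf2 transcript, had 6339, 6318 and 6706 in NTC, and its only KO peaks were 438 and 223 in METTL3-KO. ZNF568 shares its promoter peak with ZNF829, and 55 of the members share the largest peak of some library with another gene, so that such a peak counts for both.

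METTL3-KO kept more of the member signal than the other KO groups, as it did over all genes. In the same limma fit, 77 members were higher in METTL3-KO than in the other KO groups on average (37.0%, background 29.5%) and 1 was lower (0.481%, background 0.582%). The median difference was 2.21 over the members and 1.71 over all genes tested. The strongest differences were at members that had a peak in METTL3-KO and mostly none in the other KO libraries. ZNF320 had 10888, 12263 and 13317 in NTC, 2457 and 1913 in METTL3-KO and no peak in METTL14-KO or WTAP-KO. ZNF382, a KRAB repressor often silenced in tumours, had 15765, 14044 and 18668 in NTC, 1817 and 679 in METTL3-KO and none in the other KO libraries. Its NTC peak also counts for ZNF529, which had 4707 and 3348 in METTL3-KO, 2441 in METTL14-KO replicate 1 and 970 in WTAP-KO replicate 1. ZNF600 had 2327 and 2088 in METTL3-KO and otherwise 474 in METTL14-KO replicate 2, and ZNF8 had 3627 and 2060 in METTL3-KO and 1610 in METTL14-KO replicate 1. ZNF787 had 814 and 1348 in METTL3-KO and no other KO peak. The number of members past the threshold was 78 in all, fell to 45 without METTL3-KO replicate 1 and to 30 when values were divided by the step. Under centring 38 members were higher (18.3%, against 20.1% of all genes tested) and 36 lower (17.3%, against 31.4%).

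ZNF175, which was picked for its values, went the other way from the other members marked in all NTC libraries, as deposited and in METTL3-KO only. It had 2755, 2979 and 3561 in NTC, 10199 and 5784 in METTL3-KO, 1551 and 2152 in METTL14-KO, and 1060 and 2038 in WTAP-KO. The METTL3-KO values lay above all NTC values and the others below them (METTL3-KO log2 difference 1.31, SE 0.413, limma adjusted p = 0.0257; METTL14-KO -0.74, adjusted p = 0.139; WTAP-KO -1.05, adjusted p = 0.0558). The peak itself was 1844 and 1633 bp wide in METTL3-KO and 449, 286 and 426 bp in NTC. No list holds a peak over 2000 bp, and whether NTC cells carried a wider mark there that the lists do not hold was not tested. Under centring the METTL14-KO and WTAP-KO differences turned to 2.06 and 2.38.

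The corepressor machinery that KRAB proteins use was followed in a list of 19 genes (TRIM28, SETDB1, ATF7IP, the heterochromatin proteins CBX1, CBX3 and CBX5, CHD3 and CHD4, HDAC1 and HDAC2, ATRX and DAXX, the HUSH subunits TASOR, MPHOSPH8 and PPHLN1, MORC2, SMARCAD1, UHRF1 and DNMT1). A promoter peak was called at 14, 15 and 12 genes in NTC, 14 and 14 in METTL3-KO, 6 and 2 in METTL14-KO, and 1 and 2 in WTAP-KO. In percent of the NTC mean this was 102%, 29.3% and 11.0% in the METTL3, METTL14 and WTAP knockouts, against 71.8%, 36.2% and 25.6% over all protein-coding genes. The METTL3-KO number hides a turnover: among the 11 with a peak in each NTC library, 4 (36.4%) lost it in METTL3-KO, and 3 of the 19 had KO peaks and no NTC peak. In limma 8 of the 19 were lower (42.1%, background 60.9%) and 3 higher (15.8%, background 14.0%) in METTL3-KO, 11 lower (57.9%, background 68.8%) and 2 higher (10.5%, background 8.38%) in METTL14-KO, and 11 lower (57.9%, background 69.7%) and 1 higher (5.26%, background 6.81%) in WTAP-KO. The 15 genes of chromosome 19 with the zinc finger symbols ZFP, ZSCAN, ZIM or ZIK had peaks at 6 in each NTC library, 7 and 8 in METTL3-KO, 6 and 6 in METTL14-KO, and 5 and 2 in WTAP-KO. That was 125%, 100% and 58.3% of the NTC mean, above the shares of the members, on 6 marked genes. The difference between these lists and the members was not tested.

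The members fall into 21 clusters when neighbours more than 500 kb apart are separated, and these clusters differed. The cluster from ZNF101 to ZNF254, on hg19 from 19779648 to 24269989 on the short arm next to the centromere, holds 37 members. Of these, 16 had no peak in any library, among them the 8 consecutive genes ZNF506, ZNF253, ZNF93, ZNF682, ZNF90, ZNF486, ZNF737 and ZNF626. The other 21 were marked in all NTC libraries, with a median signal of 2581. A peak was kept by 10 of the 21 in METTL3-KO, by 1, ZNF726, in METTL14-KO and by none in WTAP-KO. In the mean of both libraries this was 28.6%, 2.38% and 0%, against 24.9%, 7.06% and 2.95% of other genes of equal signal. The members were behind in METTL14-KO and WTAP-KO, but 1 member of the 21 is 4.76%, more than either gap. Neither gap therefore shows an order. In METTL3-KO they were behind in replicate 1 (23.8% against 25.5%) and ahead in replicate 2 (33.3% against 24.3%). These genes are recent duplicates of each other, and whether reads were shared between near-identical copies was not tested, so single values are uncertain.

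The cluster from ZNF575 to ZNF180, with 23 members from 44037340 to 45004574, lay at the other end of the clusters shown by the share of marked members that kept a peak. Its 15 members marked in NTC had a median signal of 12710, and 15, 14 and 10 of them kept a peak in the METTL3, METTL14 and WTAP knockouts. In the mean over both libraries this was 93.3%, 76.7% and 56.7%, against 85.3%, 48.2% and 36.7% of other genes of equal signal. At equal signal it was thus not at the end in every KO, and its METTL3-KO lead was the smallest of the 7 clusters other than that of ZNF101 to ZNF254. In the cluster from ZNF175 to ZNF331, with 39 members, WTAP-KO peaks were kept by 47.8% of the 23 marked members against 18.6% of others. In the cluster from ZNF264 to ZNF446, the largest with 43 members, 85.9%, 54.7% and 23.4% of the 32 marked members had a peak in the METTL3, METTL14 and WTAP knockouts, against 67.2%, 29.5% and 18.4%. In all 7 clusters shown other than that of ZNF101 to ZNF254, the members were ahead in each of the 3 KO groups, by as little as 9.09% against 7.24% in WTAP-KO for the cluster from ZNF653 to ZNF791.

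**Figure D4:**
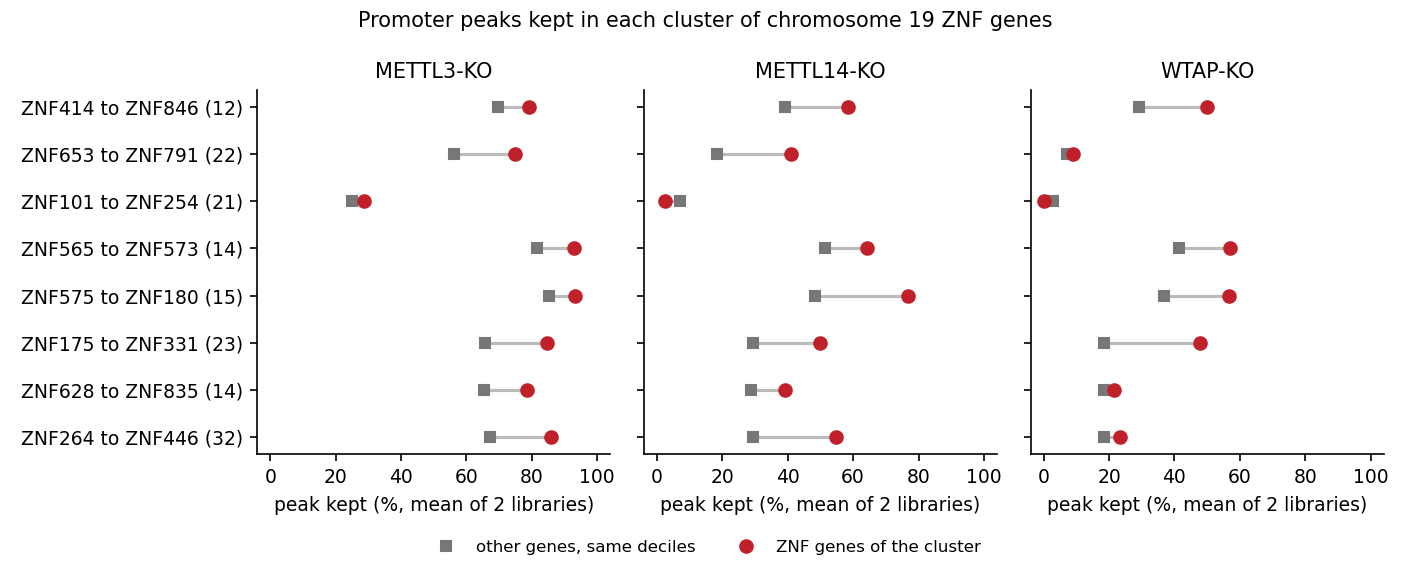
Share of members with a peak (x axis, %, mean over the 2 libraries of the KO group) in the 8 clusters with at least 10 members marked in all NTC libraries (rows, number marked in brackets). Circles are the members of the cluster and squares are other genes in the same deciles of NTC signal; in the cluster from ZNF101 to ZNF254 the circles are at 28.6%, 2.38% and 0%.

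A RefSeq window was found for 216 of the 246 members, 268 windows in all, of which 266 matched hg19 exactly once. Their median content was 60.0% G and C with 20 CG pairs, against 62.3% and 21 over 21579 windows of protein-coding genes. CCGGAAG stood in 40.7% of the member windows on either strand, against 12.9% of those of protein-coding genes and 13.3% of those of other chromosome 19 genes. TGCGCA stood in 19.4% against 9.92%, CCAAT in 134 of 268 against 34.9% and GGGCGG in 64.9% against 56.8%. AGATAA, the core of GATA sites, stood in 5.97% against 7.85%, CCACACCC, the core of KLF1 sites, in 1.49% against 3.37%, CTCGCGAG in 0.746% against 1.42% and TATAAA in 2.61% against 9.43%. The 30 windows of the cluster from ZNF101 to ZNF254 stood apart from the rest of the members, with a median of 10.0 CG pairs, CCAAT in 96.7% and CCGGAAG in 73.3%, against a median of 21.0 CG pairs and CCGGAAG in 36.6% of the other member windows. ZNF91 and ZNF675 above show this arrangement. CCGGAAG stood in 43.6% of the windows of members with a peak in all 9 libraries and in 47.1% of those with no peak in any library. It stood in 45.7% of those that lost the peak in every KO, but in 28.0% (7 of 25) of these without the cluster from ZNF101 to ZNF254. No member of that cluster had a peak in all 9 libraries. Members with a peak in all 9 libraries had a median of 22.0 CG pairs, and members that lost the peak in every KO had 14.0, or 17.0 without the cluster from ZNF101 to ZNF254. The letters are a description of the windows, and the factors named were not measured.

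In the opposite direction, 19 members had peaks in KO libraries and none in any NTC library, which is 9.09% of the 209 members with any peak and compares with 15.3% of all genes with any peak. At 10 of them (4.78%, against 4.71% of all genes) all 6 KO libraries had a peak. These 10 were ZNF790, ZNF850, ZNF420, ZNF225, ZNF230, ZNF223 and the pairs ZNF146 with ZNF565 and ZNF571 with ZNF540, each pair with 1 peak between them. ZNF225 had 11063 and 8025 in METTL3-KO, 4593 and 3380 in METTL14-KO, and 1011 and 2306 in WTAP-KO. ZNF223 had 12716 and 5869, 3563 and 3667, and 2412 and 2647 in the same order. ZNF146, which encodes a protein of fingers only with no KRAB domain, had 7679 and 5335, 3982 and 2776, and 2028 and 2104. All 3 were thus highest in METTL3-KO and lowest in WTAP-KO. In the limma fit all 3 were higher in METTL3-KO than in the other KO groups (adjusted p = 0.0170, 0.0300 and 0.0279), while centring turned this difference for ZNF146 and ZNF223.

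Peak width moved with this pattern. In METTL3-KO the 10 members with no NTC peak and 6 KO peaks had peaks with a median width of 1300 bp (1000 to 1968), against 850 bp (250 to 1844) at the 39 members with a peak in all 9 libraries. At those 39 the NTC peaks had a median width of 1482 bp and the METTL3-KO peaks were narrower. At the 5 members with 6 KO peaks and a peak in only 1 or 2 NTC libraries, the NTC peaks that were listed were 1818 to 1979 bp wide. Their METTL3-KO peaks had a median width of 904 bp (486 to 1246), near that of the 39. No list holds a peak over 2000 bp. Whether these promoters carried the mark in NTC cells in a form that the lists do not hold was not tested, and an absent NTC peak at them is read here only as no listed peak.

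**Figure D5:**
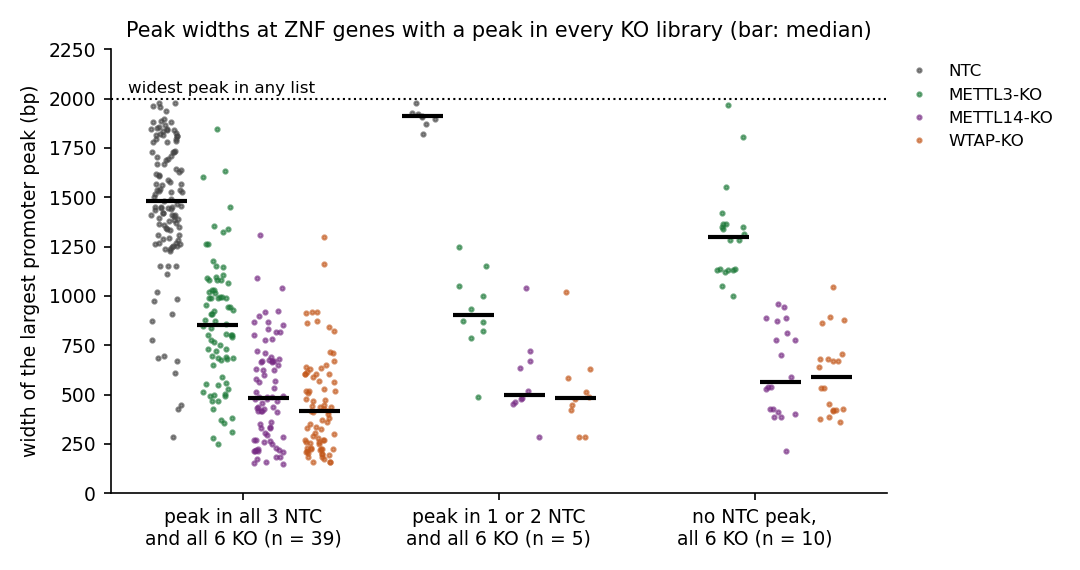
Width of the largest promoter peak (y axis, bp) at members with a peak in all 6 KO libraries, split by the number of NTC libraries with a peak (x axis). Points are peaks of single libraries coloured by group, bars are medians, and the dotted line at 2000 bp is the widest peak in any list. Where no NTC peak was listed, the METTL3-KO peaks were 1000 to 1968 bp wide. Where 1 or 2 NTC libraries had a peak, the NTC peaks were 1818 to 1979 bp and the METTL3-KO peaks 486 to 1246 bp wide.

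ZNF790 and ZNF345 share a start region and gave the 1 member that was lower in METTL3-KO than in the other KO groups. At chr19:37341095-37342038 METTL14-KO replicate 1 had a peak of 10353, and peaks over the same region had 8329 in METTL14-KO replicate 2 and 5795 and 7444 in WTAP-KO. Neither METTL3-KO nor NTC libraries had a peak there, so ZNF345 was listed at 0 in METTL3-KO. At the other ZNF790 start, whose window is printed above, METTL3-KO had 7048 and 4902, METTL14-KO 3334 and 2331, and WTAP-KO 1716 and 1211. The order of the KO groups was thus METTL3-KO, METTL14-KO, WTAP-KO at this start, while METTL3-KO was absent at the other.

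The windows of members with KO peaks and no NTC peak held 1 set of letters more often than the other member windows did. CTACANTTC, where N is any base, stood on either strand in 13 of their 27 windows (48.1%), in 11.9% of all member windows and in 1.49% of the windows of protein-coding genes. It stood in 6 of 39 windows (15.4%) of members with a peak in all 9 libraries, in 1 of 35 (2.86%) of members that lost the peak in every KO, and in none of the 30 windows of the cluster from ZNF101 to ZNF254 or the 34 of members with no peak in any library. In the windows printed above, ZNF225 holds it at 2 places and ZNF790 at 1. CCAAT stood in 18.5% and TGCGCA in 37.0% of these 27 windows. The letters CTACANTTC also stood at members with a peak in all NTC libraries, such as ZNF224 and ZNF226. Of the 19 members with KO peaks and no NTC peak, 10 lie in the cluster from ZNF565 to ZNF573 and 5 in that from ZNF575 to ZNF180. Whether the letters go with the cluster or with the peak pattern was not tested. Some of the genes share a window region, and these letters were searched after the windows had been read, so the shares are a description only.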

How the data were processed

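All 9 H3K4me3 CUT&RUN libraries of HEL cells were used, and their groups and replicate numbers came from the labels. The authors aligned paired reads with Bowtie to hg19 and sacCer3, calibrated each library to the yeast spike-in, removed duplicates with Picard and called peaks in each library, without pooling (versions are not given in the sources used here). The deposited lists hold chromosome, start, end and a signal per peak, in calibrated coverage units, and starts were read as counted from 0. The signal is no count, so no count test was used. The lists give no depth, so the small number of libraries sets the precision.

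Starts came from all transcripts of protein-coding genes of GENCODE v44 lifted to hg19, with the mitochondrial chromosome left out. The promoter signal was the largest peak signal within 1 kb of a start. It was tested with limma 3.58.1 (lmFit, eBayes with trend, R 4.3.3) on log2(signal + 30.1), where 30.1 is the lowest promoter signal, over genes with a peak in at least 2 libraries, 4 groups in 1 fit, with Benjamini-Hochberg adjustment over all genes at 0.05. The fit was tested on simulated data. Shares of members are descriptions without a test. Named members were the 8 of highest NTC signal, the 8 of highest KO signal with a peak in all KO libraries, the 6 strongest in NTC that had no KO peak, the 5 of highest KO signal without an NTC peak, the 5 most different in METTL3-KO in each direction, and a written list with described roles. The members, lists and rules were chosen with earlier results of these data known, and the letters CTACANTTC and ZNF175 after their values were seen. Alternatives were the promoter window, the overlap and the peak threshold, shared peaks, the pseudocount, the filter, summed peaks, centring, the step, the groups in the fit, the bands, the replicate block and leaving out each library. Python 3.11.15 with pandas 2.3.3, numpy 2.4.6 and matplotlib 3.10.9 served for the rest.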

Additional observations from a re-analysis of the deposited data

Results flagged for a closer look

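The difference between METTL3-KO and the other KO groups together, tested by limma within the same fit, passed the threshold at 78 members, 77 of them higher in METTL3-KO. On the log2(signal + 30.1) scale it was 1.18 for ZNF846, 1.15 for ZNF121, 1.10 for ZNF227, 1.05 for ZNF562, 1.80 for ZNF226, 1.98 for ZNF566, 2.32 for ZNF615 and 2.71 for ZNF224, all of which had a peak in each KO library. It was 1.28 for ZNF146, 1.51 for ZNF223 and 1.93 for ZNF225, which had no NTC peak. It was 3.52 for ZNF568, 4.93 for ZNF304, 5.08 for ZNF8, 5.16 for ZNF787, 5.20 for ZNF600, 5.25 for ZNF382 and 6.19 for ZNF320, and -8.02 for ZNF345. At these last 8 members most or all libraries on 1 side had no peak, so the size depends on the pseudocount and is not a fold change. What these differences come from was not tested.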

How the results depend on the processing

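The lead at equal NTC signal kept its sign under every alternative. The other shares cannot change sign, and the counts past the limma threshold hold lower and higher members together, so neither shows a direction. For METTL3-KO against the other KO groups, 77 members were higher and 1 lower as deposited, and 38 higher and 36 lower under centring. Leaving out peaks weaker than the median NTC peak moved most: members with a peak were then 48.1%, 20.5%, 7.76% and 25.5% of NTC in METTL3-KO, METTL14-KO, WTAP-KO and all KO libraries, members without a peak 53.4%, 80.8%, 94.5% and 53.4%, and the lead at equal NTC signal 11.0, 4.75 and 0.411 points. With a peak over the start itself, 83.9% (METTL3-KO) and 28.5% (WTAP-KO) had a peak, 75.8% had lost it in WTAP-KO, and the lead was 18.9 and 5.55 points. The lead was 13.0 (METTL3-KO) and 9.50 (WTAP-KO) with a 3 kb window, 12.3 and 9.18 with the middle of the peak in the window, 11.4 and 11.2 without members that share a peak, 9.44 in WTAP-KO with 20 bands, and 11.9, 9.42 and 7.06 for the 3 knockouts in this order against other chromosome 19 genes.

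Leaving out each library in turn gave members with a peak of 89.0% to 91.7% (METTL3-KO), 46.4% to 74.6% (METTL14-KO), 38.7% to 42.0% (WTAP-KO) and 58.1% to 68.7% (all KO), losses of 17.7% to 25.9%, 38.3% to 64.7%, 64.9% to 71.2% and 17.7% to 25.3%, leads of 13.1 to 13.9, 13.5 to 23.0 and 9.67 to 11.0 points, and 117 to 176, 170 to 180, 177 to 184 and 182 to 187 members past the limma threshold. For METTL3-KO against the other KO groups this count was 45.0 to 115, the lowest without METTL3-KO replicate 1. Centring left 94 members (METTL3-KO) and 113 (METTL14-KO), and dividing by the step left 83, 117 and, for METTL3-KO against the others, 30. Under centring the all-KO difference turned to 0.54 for ZNF121, 0.00 for ZNF227, 0.39 for ZNF426, 0.46 for ZNF562 and 0.30 for ZNF846, and METTL3-KO against the others to -0.44 for ZNF121, -0.31 for ZNF146, -0.09 for ZNF223, -0.49 for ZNF227, -0.88 for ZNF426, -0.54 for ZNF562 and -0.41 for ZNF846. Centring assumes that promoters with a peak in all 9 libraries kept their level, and the cause of the other changes was not tested.

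With the replicate block, in which the numbers of the labels are taken as pairs, 124, 171, 182 and 181 members passed in METTL3-KO, METTL14-KO, WTAP-KO and all KO groups, 56 passed for METTL3-KO against the others, and the shares with a peak stayed at 90.3%, 60.5%, 40.3% and 63.7%. The deviations of same-numbered libraries had a mean correlation of 0.006 over 12 pairs (-0.058 to 0.095), so the numbers were not used as pairs. A peak list without fragment totals cannot tell a lost mark from one below the height needed for a call, and that height stood for more steps in KO libraries.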

Other observations

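Peaks within the body of a member, over 1 kb from each of its starts, were found at 14, 15 and 17 members in the NTC libraries, at 5 and 3 in METTL3-KO, at 2 and 2 in METTL14-KO and at 1 and 2 in WTAP-KO. The whole lists also held fewer peaks in KO libraries, 3160 to 9369 against 21724 to 21941 in NTC. Other genes were not counted in this way, so the fall is not read as particular to the members.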
